A study of Mus musculus with 12 samples.

Results

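The transcripts of 9 genes used as markers of osteoclasts, the multinucleated cells that resorb bone, were followed in mouse bone marrow cells cultured with indole-3-propionic acid (IPA), a tryptophan product of gut bacteria. The genes were *Acp5*, *Atp6v0d2*, *Ocstamp*, *Dcstamp*, *Itgb3*, *Calcr*, *Tnfrsf11a*, *Nfatc1* and *Oscar*, taken by symbol from the 54532 genes of the table of counts, and 7 of them were among the 14894 genes with enough reads to be tested. Wild-type (WT) C57BL/6 bone marrow cells were kept for 5 days in medium containing GM-CSF and IL-6, which yields myeloid cells, in order to ask how IPA affects the generation of myeloid-derived suppressor cells (MDSC). The cells received vehicle (0.1% DMSO), 10 µM IPA or 50 µM IPA, and each of the 3 groups comprised 4 libraries. In such cultures the study reports slightly reduced cell viability at the higher dose and no effect on viability at the lower dose. For that reason its authors focused their own expression analysis on the lower dose. Whether reduced viability had a part in the differences at the higher dose was not tested. The mice of the study were females of 8 to 14 weeks. The sources used here do not say whether the libraries of a group came from separate animals or cultures, so p-values measure only the spread between these libraries, which may be technical.

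Osteoclasts arise from myeloid precursors that receive M-CSF and RANKL, the ligand of the receptor RANK. RANK signalling, together with signals from receptors that pair with ITAM adaptors, induces NFATc1, the transcription factor at the head of the osteoclast program, whose targets include genes of fusion, attachment and acid secretion. Mature osteoclasts seal off a patch of bone, acidify it with a vacuolar proton pump (V-ATPase) and digest its matrix with secreted enzymes. Neither RANKL nor M-CSF was named among the supplements of the medium. *Tnfsf11*, the gene of RANKL, had at most 4 reads in any of the 12 libraries, and *Tnfrsf11b*, the gene of its decoy receptor osteoprotegerin, had at most 6. In bulk RNA a larger share of cells expressing a gene and more RNA per cell cannot be told apart.

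Against vehicle, 3 genes rose most plainly. *Acp5* and *Atp6v0d2* rose about 1.6-fold to 1.7-fold at 10 µM and were still raised at 50 µM, and *Ocstamp* rose at 50 µM. The calls at 10 µM depended on single libraries. *Dcstamp*, which like *Ocstamp* serves cell fusion, fell at 50 µM against vehicle and against 10 µM. Its fall from 10 µM to 50 µM had the smallest adjusted p of these genes in any comparison (edgeR, 0.000204). *Nfatc1*, *Tnfrsf11a* and *Itgb3* did not pass the threshold in any of the 3 comparisons, in edgeR with the filter on low counts and with all libraries. *Calcr* had no read in any library, and *Oscar* had between 0 and 8 reads.

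*Acp5* encodes the tartrate-resistant acid phosphatase, the enzyme behind the classical stain for osteoclasts, and it is also expressed by some macrophages. The gene lies on the minus strand of chromosome 9 at 22126727 to 22135711 (GRCm38, GENCODE M21). Among the 9 genes, RefSeq promoter sequences (GRCm38.p6) were matched for *Acp5*, *Calcr*, *Tnfrsf11a* and *Oscar*. *Acp5* is shown because its transcript level changed, at the start site that also opens a GENCODE transcript. The 250 bases upstream of that start, on the minus strand of chr9:22130599-22130848, are given with capitals for matches, on either strand, to motifs associated with factors that act in osteoclasts.

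Acp5: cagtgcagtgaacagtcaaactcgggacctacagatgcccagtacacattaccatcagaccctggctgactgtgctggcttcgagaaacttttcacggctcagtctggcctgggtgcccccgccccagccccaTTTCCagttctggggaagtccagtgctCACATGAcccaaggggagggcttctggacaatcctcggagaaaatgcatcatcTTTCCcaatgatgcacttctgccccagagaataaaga

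Of the motifs searched, GGAAA, the core bound by NFAT factors, matched at 2 places on the other strand in this window, the nearer ends being 113 and 33 bases before the start. TCATGTG, the M-box of MITF and its relatives, matched on the other strand between 90 and 84 bases before the start. There was no match to TGANTCA (AP-1), CACGTG (E-box) or GAGGAA (the core bound by PU.1), and no searched motifs overlapped here. Among 32851 RefSeq promoters of the same length, 55.6% held GGAAA and 3.3% held TCATGTG on either strand, so the former is common. TGANTCA was held by 6.7%, CACGTG by 6.0% and GAGGAA by 23.3%. These are descriptions of letters, not binding sites.

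Levels are given as CPM, the reads of a gene scaled to a common library size after TMM normalisation. *Acp5* stood at 14.2, 12.4, 18.4 and 16.4 CPM in the vehicle libraries, replicates 1 to 4. It reached 25.1, 27.4, 25.2 and 22.2 CPM with 10 µM IPA and 22.2, 26.4, 26.4 and 24.4 CPM with 50 µM IPA. Every IPA library was above every vehicle library, while the ranges of the 10 µM and 50 µM libraries overlapped. The mean went from 15.3 ± 2.61 CPM (SD, n = 4) to 25.0 ± 2.17 CPM and 24.8 ± 2.00 CPM.

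The log2 fold change of *Acp5* was 0.71 ± 0.12 (SE) at 10 µM (edgeR, adjusted p = 0.0375) and 0.71 ± 0.12 at 50 µM (adjusted p = 0.00214). Between the IPA groups it was -0.00, with a 95% interval of -0.20 to 0.19 (adjusted p = 0.985). The call at 50 µM was kept whichever library was left out. The call at 10 µM was lost without vehicle replicate 1 or 2 and without any single 10 µM library, with adjusted p between 0.0536 and 0.178. An antisense gene, 6530413G14Rik, overlaps 137 bases of *Acp5* exons and had at most 6 reads in a library.

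*Atp6v0d2* encodes the d2 subunit of the V-ATPase, the form of the d subunit enriched in osteoclasts, where it is also needed for fusion of precursors. The gene lies on the minus strand of chromosome 4 at 19876841 to 19922605. Vehicle libraries held 50.7, 41.5, 60.9 and 50.8 CPM. Libraries with 10 µM IPA held 94.98, 90.8, 79.8 and 81.3 CPM, and those with 50 µM held 82.8, 81.5, 77.9 and 69.9 CPM. Neither IPA group overlapped with vehicle. The log2 fold change was 0.77 ± 0.11 at 10 µM (adjusted p = 0.0163) and 0.62 ± 0.11 at 50 µM (adjusted p = 0.00202). The 50 µM libraries differed from the 10 µM libraries by -0.15, with a 95% interval of -0.31 to 0.02 (adjusted p = 0.216). At 10 µM the call was lost without vehicle replicate 1 (adjusted p = 0.0867) and without 10 µM replicate 2 (adjusted p = 0.0954). At 50 µM it was kept without any single library.

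*Ocstamp* and *Dcstamp* encode membrane proteins with several transmembrane passes, both needed for osteoclast precursors to fuse into multinucleated cells. *Ocstamp* (chromosome 2, 165393760 to 165400405) stood at 7.87, 8.28, 11.2 and 8.15 CPM in vehicle. It stood at 14.2, 18.2, 15.01 and 11.6 CPM with 10 µM IPA and at 18.03, 16.4, 14.7 and 13.9 CPM with 50 µM. All IPA libraries lay above all vehicle libraries, the closest pair being 10 µM replicate 4 and vehicle replicate 3.

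*Ocstamp* rose at 50 µM by 0.84 ± 0.14 on the log2 scale (adjusted p = 0.00139), and this call was kept without any single library. At 10 µM the log2 fold change was 0.74 ± 0.16 (adjusted p = 0.0819), which misses the threshold in edgeR, whereas DESeq2 gave an adjusted p of 0.00178. Between the IPA groups the log2 difference was 0.09, with a 95% interval of -0.18 to 0.37.

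*Dcstamp* (chromosome 15, 39745930 to 39760938) followed another pattern. Its levels were 69.2, 69.4, 74.8 and 65.1 CPM in vehicle, 84.1, 99.1, 87.9 and 72.5 CPM with 10 µM, and 55.2, 58.0, 53.9 and 43.7 CPM with 50 µM. The 50 µM libraries were below all others, whereas 10 µM replicate 4 fell within the vehicle range. *Dcstamp* fell by 0.39 on the log2 scale from vehicle to 50 µM (SE 0.092, adjusted p = 0.0127) and by 0.70 from 10 µM to 50 µM (SE 0.10, adjusted p = 0.000204). At 10 µM against vehicle its log2 fold change was 0.30 (adjusted p = 0.257). The fall from vehicle missed the threshold without vehicle replicate 3 (adjusted p = 0.0521), and the fall from 10 µM kept its call without any single library.

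**Figure D1:**
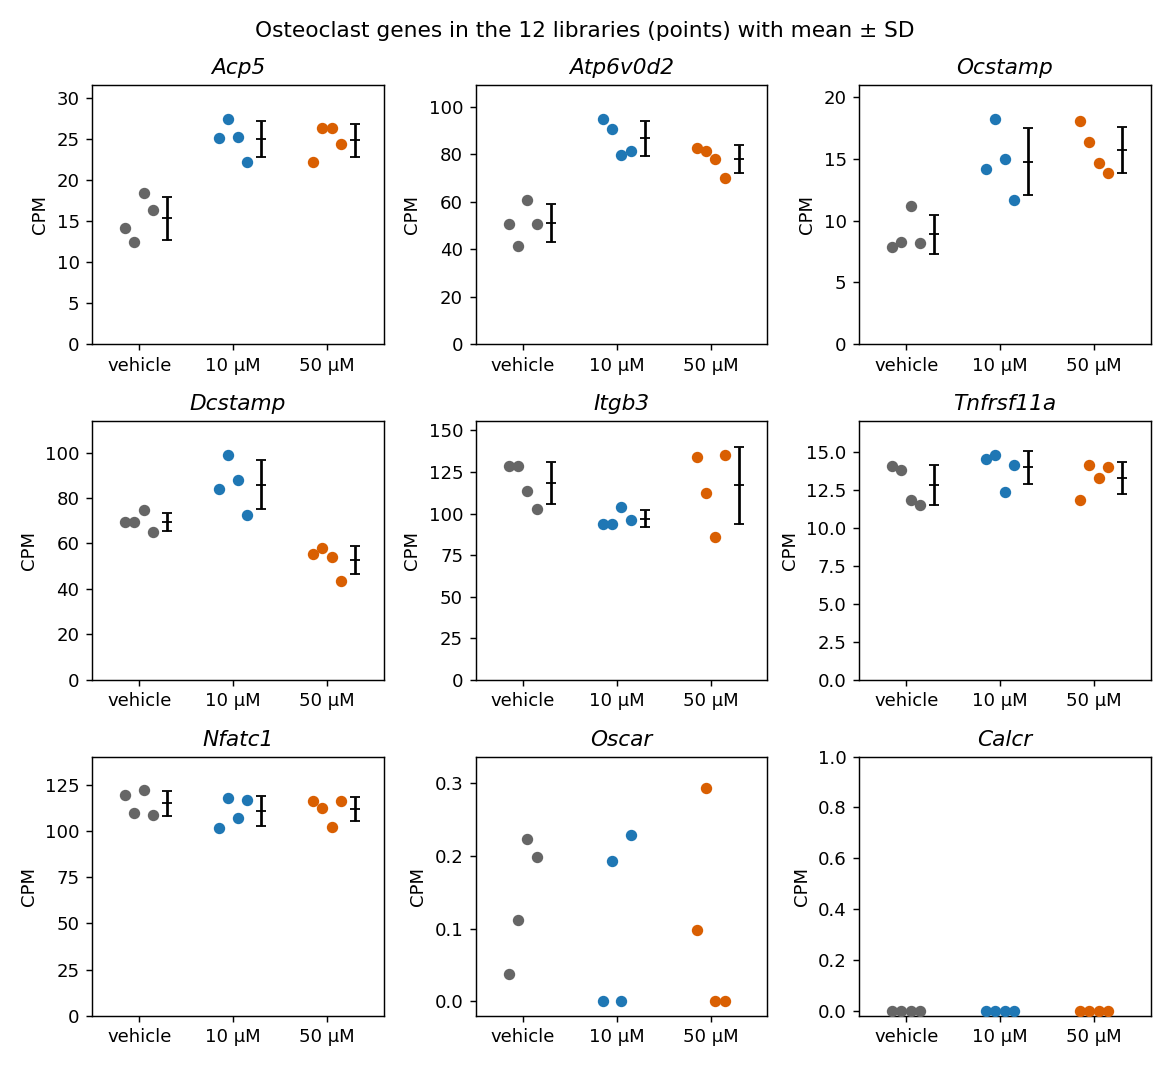
Each panel shows CPM of a gene in the 4 libraries of each group, with vehicle, 10 µM IPA and 50 µM IPA on the horizontal axis, points for libraries and the mean with its SD where the gene was tested. *Acp5*, *Atp6v0d2* and *Ocstamp* lie higher in all 8 IPA libraries than in vehicle, and *Dcstamp* lies lowest at 50 µM.

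*Nfatc1* kept nearly level. It lay between 109 and 122 CPM in vehicle, between 102 and 118 CPM with 10 µM IPA and between 102 and 117 CPM with 50 µM IPA. Its log2 fold change was -0.05 at 10 µM (adjusted p = 0.912) and -0.03 at 50 µM (adjusted p = 0.831). *Tnfrsf11a*, which encodes RANK (chromosome 1, 105780718 to 105847981), lay between 11.5 and 14.1 CPM in vehicle, between 12.4 and 14.8 CPM with 10 µM and between 11.8 and 14.1 CPM with 50 µM. Its log2 fold changes were 0.12 (adjusted p = 0.836) and 0.06 (adjusted p = 0.762). The groups overlapped for both genes in every comparison.

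*Itgb3* encodes integrin β3, which pairs with the αv chain to form the vitronectin receptor that anchors osteoclasts to bone (chromosome 11, 104608000 to 104670476). It stood at 129, 129, 114 and 103 CPM in vehicle, at 93.5, 94.0, 104 and 96.4 CPM with 10 µM, and at 134, 112, 86.1 and 136 CPM with 50 µM. The 50 µM libraries were the most spread, with replicate 3 at the bottom. The log2 fold change was -0.29 at 10 µM (adjusted p = 0.225), -0.01 at 50 µM (adjusted p = 0.977) and 0.27 between 10 µM and 50 µM (adjusted p = 0.107). The difference between the IPA groups missed the threshold in this fit and passed it without 50 µM replicate 3, at 0.40 (adjusted p = 0.00312), and with no filter on low counts (adjusted p = 0.00563). That at 10 µM against vehicle passed without vehicle replicate 4 (adjusted p = 0.0386).

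*Calcr*, the receptor for calcitonin and a marker of mature osteoclasts (chromosome 6, 3685680 to 3764714), had 0 reads in all 12 libraries. A count of 0 allows up to 3 reads, which corresponds to between 0.109 and 0.147 CPM in a library, for counting error only. *Oscar*, an immunoglobulin-like receptor that signals through an ITAM adaptor (chromosome 7, 3609813 to 3616157), had 1, 3, 5 and 5 reads in vehicle, 0, 4, 0 and 5 with 10 µM and 2, 8, 0 and 0 with 50 µM. Both genes were too low to be tested, so a difference was not detectable at this depth.

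Of the 7 genes tested, 2 were called at 10 µM, both higher, where 0.410% of all tested genes were called, 0.329% higher and 0.0806% lower. Both counts turn on single libraries: without 10 µM replicate 2 edgeR called 4 genes in all and 0 of the 7, without vehicle replicate 1 it called 10 and 0 of the 7, and without vehicle replicate 4 it called 122 and 3 of the 7, against 61 and 2 with all libraries. DESeq2 called 250 genes and 3 of the 7. At an unadjusted p under 0.05, 5 of the 7 passed at 10 µM beside 8.78% of all genes, 4 of the 7 at 50 µM beside 27.9% and 2 of the 7 between the IPA groups beside 29.5%. At 50 µM against vehicle 4 of the 7 were called, 3 higher and 1 lower, beside 13.5% of all tested genes (7.00% higher and 6.50% lower). At 50 µM against 10 µM 1 of the 7 was called, lower, beside 15.4% of all genes (7.52% higher and 7.85% lower). Each group of 4 libraries serves in 2 of the 3 comparisons, so these share samples. Without overlap between groups, 3 of the 7 were higher at 10 µM, where 3.57% of all tested genes were higher and 2.56% lower. At 50 µM 3 were higher (beside 9.45%) and 1 lower (beside 10.5%), and between the IPA groups 1 was lower (beside 10.9%, with 9.43% higher).

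**Figure D2:**
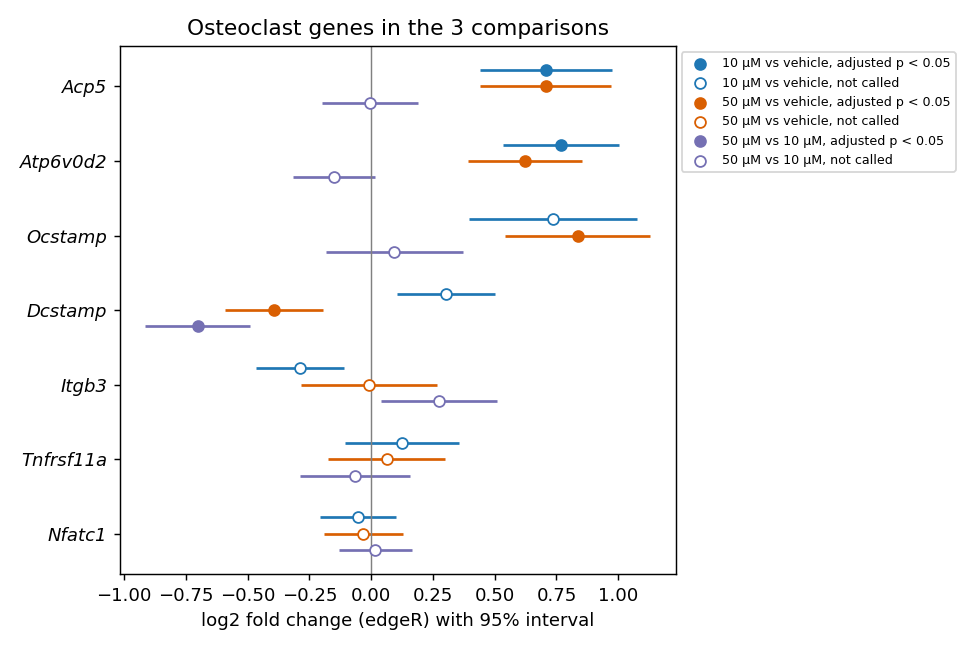
The log2 fold change of each of the 7 tested genes is plotted for the 3 comparisons, with 95% intervals from edgeR. At both doses the intervals of *Acp5*, *Atp6v0d2* and *Ocstamp* lie above 0, and the difference between doses is centred near 0 for *Acp5* and at -0.70 for *Dcstamp*.

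Levels can be compared between genes only per length of transcript, here as CPM per kb of exon. In vehicle *Dcstamp* was highest at 26.1 ± 1.49 CPM per kb (SD, n = 4). *Itgb3* (20.1), *Atp6v0d2* (18.8) and *Nfatc1* (15.4) followed, and neighbours among these 3 overlapped in range. *Acp5* came next at 7.55 CPM per kb, then *Ocstamp* (2.43) and *Tnfrsf11a* (2.14), which overlapped, with *Oscar* at 0.077 and *Calcr* at 0. With 10 µM IPA *Dcstamp* (32.2) and *Atp6v0d2* (31.9) overlapped at the top, ahead of *Itgb3* (16.4), *Nfatc1* (14.9), *Acp5* (12.3), *Ocstamp* (4.04) and *Tnfrsf11a* (2.33). With 50 µM *Atp6v0d2* stood first at 28.7 CPM per kb, apart from *Itgb3* (19.8) and *Dcstamp* (19.8), which overlapped, and *Nfatc1* (15.01), *Acp5* (12.2), *Ocstamp* (4.30) and *Tnfrsf11a* (2.22) kept their order.

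The d subunit of the V-ATPase is encoded by *Atp6v0d1*, expressed in most tissues, and by *Atp6v0d2*. Per kb of exon, *Atp6v0d2* supplied 12.4% ± 1.61 (SD, n = 4) of the d subunit transcripts in vehicle, 18.7% ± 0.563 with 10 µM IPA and 18.2% ± 1.30 with 50 µM IPA. Both IPA groups lay above all vehicle libraries. The differences of 6.29 and 5.83 percentage points each had p = 0.0286 by a two-sided exact permutation test, the smallest that 4 against 4 libraries allow, and an adjusted p of 0.0571 over 6 tests. *Atp6v0d1* itself did not pass the threshold of edgeR in any comparison (237.7 ± 25.6, 249.5 ± 27.98 and 231 ± 8.26 CPM).

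For the β chains, the share of *Itgb3* among *Itgb3* and *Itgb5* transcripts per kb was 51.3% ± 2.93 in vehicle, 43.8% ± 2.63 with 10 µM and 51.0% ± 4.86 with 50 µM. The share with 10 µM differed from vehicle by -7.42 points without overlap (exact permutation p = 0.0286, adjusted p = 0.0571), and with 50 µM by -0.305 points (exact permutation p = 0.971). Between the IPA groups it differed by 7.11 points (exact permutation p = 0.0857, adjusted p = 0.129). *Itgav* and *Itgb5* were not called by edgeR in any comparison.

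**Figure D3:**
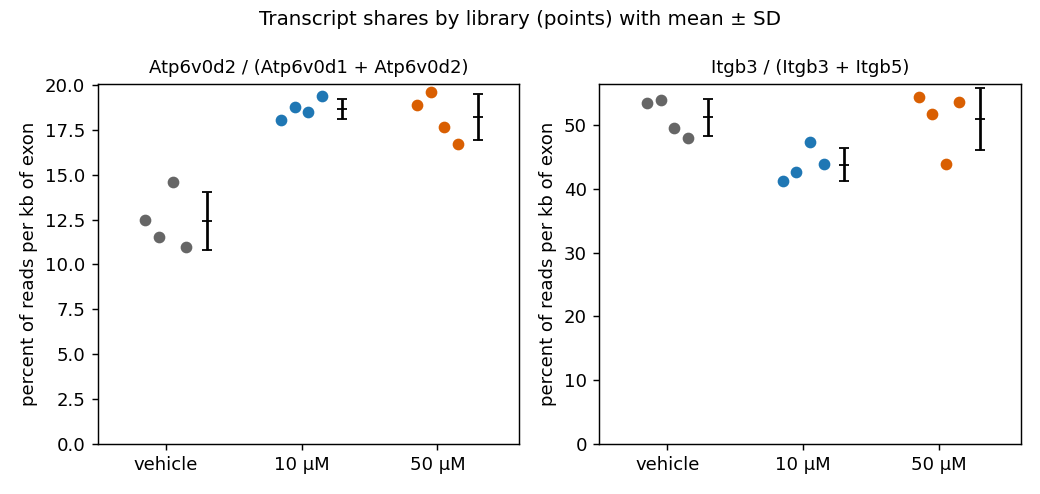
The shares of *Atp6v0d2* among d subunit transcripts and of *Itgb3* among β3 and β5 transcripts are plotted in percent for each library, per kb of exon, with the group mean and SD. The *Atp6v0d2* share is near 12.4% in vehicle and above 18% in the mean of either IPA group.

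The remaining genes of the pathway were taken from 9 lists with 103 genes, of which 95 were tested. At 10 µM 2 were called, both higher (2.11% of those tested, beside 0.410% of all genes). At 50 µM 9 were higher and 10 lower (20%, beside 13.5%), and between the IPA groups 11 were higher and 14 lower at 50 µM (26.3%, beside 15.4%). With each library left out in turn, the calls at 10 µM did not hold for either of the 2 genes in all fits, against 9 of 19 at 50 µM and 15 of 25 between the IPA groups. The 9 at 50 µM were *Csf1*, *Csf1r*, *Pparg*, *Prdm1*, *Irf8*, *Rbpj*, *Cd44*, *Mmp9* and *Atp6v1g1*. The highest adjusted p of the other 10 lay between 0.0647 and 0.148, reached without vehicle replicate 1 (*Syk*), vehicle replicate 3 (*Plcg2*, *Mmp14*, *Atp6v0a1*, *Atp6ap1*), 50 µM replicate 2 (*Map3k14*, *Creb1*, *Adam8*, *P2rx7*) or 50 µM replicate 3 (*Spp1*).

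Among ligands and receptors, *Csf1*, the gene of M-CSF, rose with 50 µM IPA from 91.5 ± 12.8 to 187 ± 7.55 CPM, or by 1.04 on the log2 scale (adjusted p = 1.47e-05), and stood at 126.5 ± 16.2 CPM with 10 µM (adjusted p = 0.131). Its receptor gene *Csf1r* fell by 0.34 on the log2 scale at 50 µM (adjusted p = 0.00769), with 939 ± 30.3 CPM in vehicle and 739 ± 58.1 CPM at 50 µM. In the list of ITAM co-stimulation 9 genes were tested. *Blnk*, an adaptor downstream of ITAM receptors, rose at 10 µM from 11.6 ± 1.01 to 18.6 ± 2.08 CPM, or by 0.68 on the log2 scale (adjusted p = 0.0263), a call lost without 10 µM replicate 2 (adjusted p = 0.139) and in 4 of the other 7 fits. At 50 µM *Syk* and *Plcg2*, a kinase and a phospholipase of the same route, fell by 0.27 and 0.25 (adjusted p = 0.0479 and 0.0371).

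Over all tested genes edgeR called 0.410% at 10 µM and 13.5% at 50 µM (7.00% higher and 6.50% lower). A count of 0 is therefore usual for a short list at 10 µM. Of 14 genes that transduce the RANK signal, 0 were called at 10 µM by edgeR (2 at an unadjusted p under 0.05, 0 by DESeq2 and 0 by limma-voom) and 1 at 50 µM. That gene was *Map3k14*, the kinase of the alternative NF-κB route, 0.63 higher on the log2 scale (adjusted p = 0.0395) and called in 2 of 8 fits with a library left out. *Src*, needed for the ruffled border, was lower at 50 µM than at 10 µM by 0.50 (adjusted p = 0.0103). Among 14 transcription activators 0 were called at 10 µM by edgeR (3 at an unadjusted p under 0.05, 0 by DESeq2 and 0 by limma-voom) and 3 were lower at 50 µM. *Prdm1*, a repressor of the inhibitors of osteoclast formation, fell by 0.76 (adjusted p = 0.0032), *Pparg* fell by 0.68 (adjusted p = 0.00165) and *Creb1* fell by 0.23 (adjusted p = 0.0381). *Mitf* and *Fos* were not called by edgeR in any comparison, although *Fos* was lower in all 8 IPA libraries than in vehicle (66.0 ± 3.46, 57.2 ± 2.73 and 57.2 ± 4.62 CPM). *Mitf* was higher in all 4 libraries with 10 µM than in vehicle (45.4 ± 3.78, 53.4 ± 2.63 and 48.8 ± 3.13 CPM), with a log2 fold change of 0.23 (adjusted p = 0.319).

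Of 8 transcription factors and signal modulators that restrain osteoclast formation, 2 were called at 50 µM by edgeR, both higher, beside 13.5% of all tested genes. DESeq2 called 3, adding *Inpp5d* as lower (log2 fold change -0.20, DESeq2 adjusted p = 0.0293 and edgeR 0.0763). At 10 µM edgeR called 0 of the 8 (2 at an unadjusted p under 0.05, 1 by DESeq2 and 0 by limma-voom), beside 0.410% of all tested genes. *Irf8*, whose product binds and restrains NFATc1, went from 86.6 ± 1.35 to 113.9 ± 5.19 CPM, a rise of 0.40 on the log2 scale (adjusted p = 0.00142). *Rbpj* rose by 0.39 (adjusted p = 0.00141). The median log2 fold change of this list was -0.05 at 50 µM, beside 0.01 over all tested genes, with 3 genes above 0 and 5 below.

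In the fusion list, with 10 tested genes beside *Ocstamp*, *Dcstamp* and *Atp6v0d2*, 2 were higher and 1 lower at 50 µM. Of all tested genes 7.00% were called higher and 6.50% lower there. *P2rx7*, a receptor for extracellular ATP, and *Adam8*, a membrane metalloprotease, rose by 0.37 and 0.24 (adjusted p = 0.017 and 0.0424), and the adhesion receptor gene *Cd44* fell by 0.34 (adjusted p = 0.00452). Of 11 genes of bone resorption edgeR called 0 at 10 µM (1 at an unadjusted p under 0.05, 0 by DESeq2 and 0 by limma-voom), beside 0.410% of all tested genes. *Ctsk*, the main collagenase of osteoclasts, stood at 4.27 ± 1.97, 7.92 ± 1.62 and 3.91 ± 0.546 CPM in vehicle, 10 µM and 50 µM. At 10 µM it did not overlap with vehicle, its log2 fold change being 0.90 (adjusted p = 0.294). From 10 µM to 50 µM it fell by 1.01 (adjusted p = 0.000869). *Mmp9*, a gelatinase, rose at 50 µM by 0.33 (adjusted p = 0.0109) and *Mmp14* fell by 0.28 (adjusted p = 0.0363), while *Car2*, the carbonic anhydrase that supplies protons, was not called by edgeR in any comparison.

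*Spp1*, which encodes the bone matrix ligand osteopontin, was the called gene among 10 tested genes of attachment. It stood at 1751 ± 452 CPM in vehicle, 3285 ± 187 CPM with 10 µM and 2697 ± 354 CPM with 50 µM. Its log2 fold change was 0.91 at 10 µM (adjusted p = 0.0311) and 0.63 at 50 µM (adjusted p = 0.0173), and the former call was lost without 10 µM replicate 2 (adjusted p = 0.143) and in 4 of the other 7 fits. *Spp1* shares 309 bases with the gene Gm42793 on the same strand, which had at most 47 reads in a library. Of 17 other genes tested in the V-ATPase list, which includes the accessory genes *Atp6ap1* and *Atp6ap2*, 16 had a positive log2 fold change at 10 µM. Their median was 0.06, beside -0.01 over all genes. *Tcirg1*, a V-ATPase subunit gene kept in the bone resorption list and not among the 17, was at -0.10 there (edgeR, adjusted p = 0.868). By edgeR 0 of the 17 were called at 10 µM (1 at an unadjusted p under 0.05, 0 by DESeq2 and 0 by limma-voom), beside 0.410% of all tested genes. At 50 µM *Atp6v1g1* rose by 0.38 (adjusted p = 0.00959), and *Atp6v0a1* and *Atp6ap1* fell by 0.30 and 0.23 (adjusted p = 0.0185 and 0.027).

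Between the IPA groups several genes that edgeR did not call against vehicle differed. At 50 µM *Fosl1*, a Fos family member, was lower than at 10 µM by 0.84 (adjusted p = 0.00822), but 1163 bases of its exons lie antisense to *Ccdc85b*, which had up to 395 reads in a library against at most 255 for *Fosl1*. Since the strand setting of the counting is not given, reads of the pair cannot be told apart and the *Fosl1* values are uncertain. DESeq2 also called *Fosl1* lower at 50 µM against vehicle (adjusted p = 0.035, edgeR 0.0663). *Tcirg1*, the gene of the V-ATPase a3 subunit of osteoclasts, was higher by 0.31 (adjusted p = 0.00161), from 169 ± 4.47 to 209 ± 6.71 CPM. *Ppargc1b*, *Jdp2*, *Cyld*, *Tab2* and *Cd81* were higher by 0.21 to 0.48, and *Sirpa* and *Atp6v0a2* were lower by 0.18 and 0.27, with adjusted p between 0.0158 and 0.0444. None of these 7 calls was kept in all 8 fits with a library left out, and their highest adjusted p lay between 0.0676 and 0.123.

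**Figure D4:**
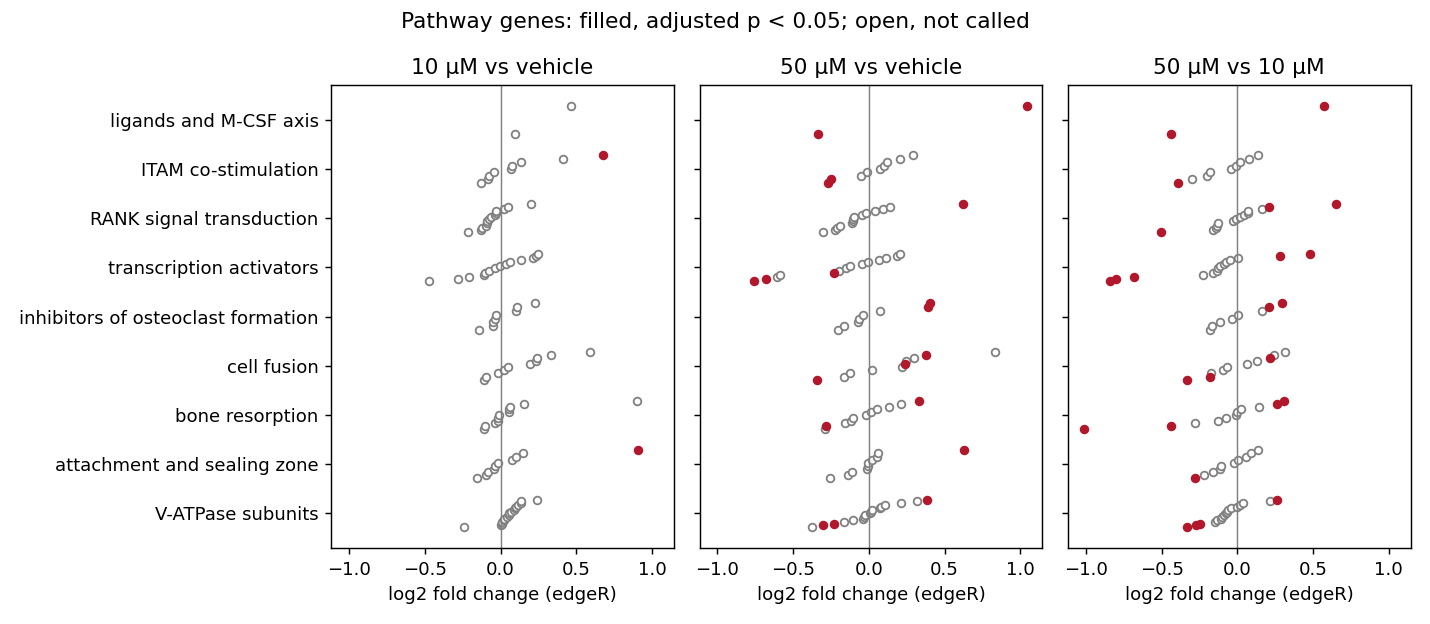
The log2 fold changes of the tested genes of each pathway list are plotted by comparison, 1 row per list, filled where the adjusted p was under 0.05 and open otherwise; the 9 osteoclast genes themselves are not drawn. At 10 µM 2 genes are filled, at 50 µM against vehicle 19 and between the IPA groups 25.

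Markers of other cell types were read in the same libraries. The summed level of 9 macrophage markers ranged from 6649 to 7532 CPM in vehicle, from 8061 to 9323 CPM with 10 µM and from 8192 to 9850 CPM with 50 µM, and most of it came from *Lyz2*, with means of 5307, 6437 and 6916 CPM. Without *Lyz2*, a sum chosen after seeing the data, the other 8 markers held 1690 to 1881 CPM in vehicle, 2009 to 2211 CPM with 10 µM and 1708 to 1827 CPM with 50 µM. In that sum the 10 µM libraries lay above vehicle and the 50 µM libraries overlapped with it. At 10 µM all 9 macrophage markers had a positive log2 fold change, with a median of 0.39, and 7 lay above every vehicle library, as *Acp5*, *Atp6v0d2* and *Ocstamp* did (beside 3.57% of all genes). Of the 9, edgeR called 2 there, both higher, beside 0.410% of all tested genes. Limma-voom called 2 and DESeq2 called 5, and 7 had an unadjusted p under 0.05 in edgeR, beside 8.78% of all tested genes. At 50 µM the markers went both ways: *Adgre1*, *Lyz2* and *Cd68* lay above every vehicle library, with log2 fold changes of 0.68, 0.39 and 0.28 (edgeR adjusted p = 7.48e-05, 0.0102 and 0.0674), and *Mrc1* and *Csf1r* lay below, at -0.69 and -0.34 (adjusted p = 0.00232 and 0.00769).

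The sum of 6 markers of Ly6C-high monocytes was 2688 to 3426 CPM in vehicle, 3839 to 4927 CPM with 10 µM and 2419 to 3122 CPM with 50 µM. At 10 µM 5 of the 6 had a positive log2 fold change, with a median of 0.38. *Fn1*, the most abundant, was called higher there at 0.82 (adjusted p = 0.0102, lost without vehicle replicate 1 or 10 µM replicate 2), and *Ccr2* lay above every vehicle library at 0.54 (adjusted p = 0.0975 by edgeR and 0.00287 by DESeq2). Without *Fn1* the sums were 1396 to 1922, 1790 to 1985 and 971 to 1224 CPM. At 50 µM *Ccr2*, *Vcan* and *F13a1* were called lower, at -0.76, -0.74 and -1.92, while *Fn1* was at 0.23 (adjusted p = 0.174).

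The sum of 9 neutrophil markers was 20014 to 28284, 18525 to 21516 and 14059 to 19630 CPM, and that of 6 dendritic cell markers 1276 to 1410, 1335 to 1548 and 1186 to 1385 CPM. At 10 µM edgeR, DESeq2 and limma-voom each called 0 neutrophil and 0 dendritic cell markers, with 2 and 1 at an unadjusted p under 0.05. Of all tested genes edgeR called 0.410% there. At 50 µM edgeR called 5 neutrophil markers, all lower, where 6.50% of all tested genes were called lower. Of the dendritic cell markers *Zbtb46* and *Ccr7* were called higher there, at 0.38 and 0.41 (adjusted p = 0.0263 and 0.0135), calls lost in 5 and 2 of 8 fits with a library left out and both without 50 µM replicate 2, and *H2-Ab1* lower at -0.44 (adjusted p = 0.0114). Of 9 stromal and osteoblast markers 3 passed the filter, with sums over the list between 38.8 and 52.4 CPM in the 12 libraries, mostly *Runx2*. Without *Runx2*, a sum chosen after seeing the data, the other 8 held 6.76 to 12.1 CPM in vehicle, 5.76 to 10.2 CPM with 10 µM and 3.52 to 4.75 CPM with 50 µM. In that sum the 50 µM libraries lay below all vehicle libraries. At 50 µM *Runx2* lay above every vehicle library at 0.24 (adjusted p = 0.072) and *Lepr* was called lower at -1.24 (adjusted p = 0.00196). No marker in these lists was at 0 in all 12 libraries. The part of these cell types in the changes of the osteoclast genes was not tested.

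Over the 12 libraries, the tested genes of at least 1 CPM whose log2 CPM went most closely with that of *Acp5* were *Rnf128* (Pearson's r = 0.97), *Epb41l1* (0.96), *Plaur* (0.96), *Dhrs9* (0.95) and *Lgmn* (0.94), among 12606 candidates. For *Atp6v0d2* they were *Plaur* (0.95), *Rnf128* (0.95), *Epb41l1* (0.95), *Mmp13* (0.94) and *Acp5* (0.94). *Atp6v0d2* was thus the sixth gene in order of likeness to *Acp5*. For the other tested osteoclast genes Pearson's r with *Acp5* was 0.90 (*Ocstamp*), 0.22 (*Tnfrsf11a*), 0.0045 (*Dcstamp*), -0.22 (*Nfatc1*) and -0.50 (*Itgb3*). These correlations describe 12 libraries that fall into 3 dose groups, share a culture scheme and are not independent of the differences given above.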

How the data were processed

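RNA of bone marrow cultures (12 libraries, 4 each for vehicle, 10 µM and 50 µM IPA) was sequenced with a stranded mRNA kit. Per the study's methods and the submitters' processing notes, the authors used Atropos for trimming and HISAT2 2.2.1 for alignment (mm10), and deposited raw counts per Ensembl gene (release 92) from featureCounts 2.0.1, without normalisation. The strand setting of the counting is not given in the sources used here. The title of 10 µM replicate 3 repeats that of replicate 2, and the library name was used. Totals lay between 20451312 and 28038612 counts, and no library was a copy of another of its group.

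Genes above 0.5 CPM in at least 2 of 12 libraries were kept. Each of 3 pairs of groups was fitted on its 8 libraries with edgeR 4.0.16 (TMM, glmQLFit, glmQLFTest) in R 4.3.3, without a block, with Benjamini-Hochberg adjustment over all tested genes and a threshold of 0.05. The study's own tool was DESeq2. DESeq2 1.42.0, limma-voom (limma 3.58.1), other filters and scalings, all 12 libraries, a replicate block, an exon length offset and leaving out each library were the alternatives. The procedure was tested on simulated data. Transcript shares were compared by two-sided exact permutation over 70 splits. Exon lengths and positions are from GENCODE M21.

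The osteoclast genes and all lists were chosen with earlier results of these data known. A list gene is not reported here and enters no list count. Named from the lists were up to 8 called genes per list, by smallest adjusted p, and *Tnfsf11*, *Tnfrsf11b*, *Csf1r*, *Itgav*, *Itgb5*, *Atp6v0d1*, *Ctsk*, *Mmp9*, *Car2*, *Mitf*, *Irf8* and *Fos* whatever their values. For *Acp5* and *Atp6v0d2* the 5 genes with the highest Pearson's r were named, and for *Acp5* also the other tested osteoclast genes.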

Additional observations from a re-analysis of the deposited data

Results flagged for a closer look

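In the vehicle group, replicate 3 held 11.2 CPM of *Ocstamp*, against 7.87 to 8.28 CPM in the remaining replicates, and this gap to its neighbour, as a share of the group's range, exceeded Dixon's 95% critical value for 4 libraries. It was the 1 such case among 27 groups examined, and chance gives about 1 in 20. Without that library the log2 fold change of *Ocstamp* at 10 µM was 0.87 (edgeR, adjusted p = 0.0534).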

How the results depend on the processing

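The direction of *Acp5*, *Atp6v0d2* and *Ocstamp* against vehicle, and of *Dcstamp* at 50 µM, held under all alternatives listed here. The count of genes called at 10 µM, 61 with edgeR, was 250 with DESeq2, 150 with no filter and 118 with all 12 libraries in the fit. It ranged from 4 (without 10 µM replicate 2) to 122 (without vehicle replicate 4) when a library was left out, and the osteoclast genes called, 2, ranged from 0 to 3. At 50 µM the genes called, 2010, ranged from 1248 without vehicle replicate 3 to 2689 without vehicle replicate 4. Between the IPA groups 2 osteoclast genes were called in place of 1 with no filter, with a range of 1 to 2 when a library was left out, the added gene being *Itgb3*. *Ocstamp* at 10 µM passed the threshold with DESeq2, with no filter and with all 12 libraries.

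Values near 0 changed sign. The log2 fold change of *Itgb3* at 50 µM was 0.00339 with an exon length offset and ranged from -0.088 to 0.107 without single libraries, and that of *Nfatc1* from -0.061 to 0.0039. Between the IPA groups *Acp5* ranged from -0.056 to 0.046, *Ocstamp* from -0.0017 to 0.21 and *Nfatc1* from -0.019 to 0.060. The difference in the *Atp6v0d2* share between the IPA groups ranged from -0.932 to 0.0498 points. The *Itgb3* share at 50 µM against vehicle ranged from -1.49 to 2.06 points, and against 10 µM from 5.93 to 9.47 points. Without 50 µM replicate 3 the latter passed its threshold, at the smallest exact permutation p that the libraries left allow. The share differences with an adjusted p of 0.0571 were also at their smallest possible p. That pass thus turns on the adjustment over 6 tests, and no conclusion is drawn from it. The causes were not tested.

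Libraries with the same replicate number correlated between -0.242 and 0.142 in their deviations from the group means, so the numbers were not taken to pair them. With a replicate block 3 genes and 0 osteoclast genes were called at 10 µM (adjusted p = 0.233 for *Acp5* and 0.189 for *Atp6v0d2*, edgeR), and the block changed no call of an osteoclast gene in the other comparisons. Exact paired sign flips of 4 pairs of shares cannot go below p = 0.125.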
